A study of Mus musculus with 10 samples.

Results

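Immunoglobulin variable segments are the genes that code for the antigen-binding end of antibody chains, and their messages were followed here in the terminal ileum of mice after stomach surgery. The segments were the genes whose symbol begins with Ighv (heavy chain), Igkv (kappa light chain) or Iglv (lambda light chain) and that had a count above 0 in at least 1 library. That rule took 100 of the 36401 genes in the count tables: 32 Ighv, 65 Igkv and 3 Iglv segments. Detection therefore chose the segments, and it is not a finding. Outside the threshold lay 1 further gene with such a symbol, Ighv1-24, which had 0 counts in every library. Just inside it lay Ighv8-14, seen only in sham 1 at 0.0162 CPM (counts per 1000000 library counts, normalised as described below), and Ighv3-3, which reached 0.0337 CPM in VSG 4.

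All animals were male C57Bl6 mice made obese on a diet with 60 kcal % fat for 6 weeks, operated on at 8 weeks of age and given liquid Osmolite, a complete nutrient formula, around surgery. The VSG group (5 libraries) had a vertical sleeve gastrectomy, in which most of the stomach is removed along its long curve, and then ate ad libitum. The sham group (5 libraries, SPF in the labels) had a sham operation and was pair-fed to the VSG animals, so that surgery and feeding regime change together between the groups. About 8 weeks later each mouse was fasted overnight, received 0.5 mL of Osmolite by gavage, and gave its terminal ileum 1 hour afterwards for RNA sequencing with single-end reads of 50 bases.

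Each B cell joins 1 variable segment of its heavy-chain locus and 1 of a kappa or lambda locus to joining and constant parts, and its descendants keep that choice. The wall of the small intestine holds many plasma cells, end-stage B cells that secrete antibody, mostly IgA, and that carry very large amounts of immunoglobulin message. In bulk tissue the level of a variable segment sums over all the cells that chose it.

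Libraries held between 15364651 and 34058181 counts, and their log2 profiles correlated at 0.912 to 0.985. VSG 2, sham 2 and sham 4 stood apart and went against the ileal label: Fabp6, the ileal bile acid-binding protein, was at 38.9, 57.2 and 62.0 CPM there and at 2556 to 6106 elsewhere. Gata4, a regulator found in the upper small intestine, was at 121, 109 and 183 CPM in those libraries and at 1.72 to 6.28 in the others. Results are therefore also given without these 3 libraries. The summed level of 14 B cell genes, which mark B cells of lymphoid follicles, ran from 19.7 CPM in sham 2 to 364.5 in sham 3 and was also low in VSG 1, VSG 3 and sham 4, at 28.1, 52.1 and 27.9.

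Many segments are near-copies of each other, which bears on every single value below. Of the stretches of 50 bases in a segment's GENCODE transcript, a median of 25.4% occurred unchanged in another variable segment and 77.7% occurred with up to 2 mismatches. For 73 of the 100 segments more than 50% of the stretches were shared in the second sense, and for 4 none were. Reads were 50 bases long, so a read from a stretch that occurs unchanged elsewhere cannot be placed by sequence alone, and 1 or 2 bases decide the place of a read from the others. Of the positive values of the segments 89.5% were fractional, against 66.7% of those of all genes, and no source used here says how the fractions arose. The lambda segments Iglv1 and Iglv2, the most abundant of the 100 segments by mean, and the pair Ighv8-5 and Ighv8-8, of which Ighv8-5 led the 32 heavy-chain segments in 3 libraries, show how close such copies are. The last 300 bases of each transcript follow, from GENCODE M21 on GRCm38, 5′ to 3′ on the coding strand, with capitals where the members of a pair differ.
Iglv1: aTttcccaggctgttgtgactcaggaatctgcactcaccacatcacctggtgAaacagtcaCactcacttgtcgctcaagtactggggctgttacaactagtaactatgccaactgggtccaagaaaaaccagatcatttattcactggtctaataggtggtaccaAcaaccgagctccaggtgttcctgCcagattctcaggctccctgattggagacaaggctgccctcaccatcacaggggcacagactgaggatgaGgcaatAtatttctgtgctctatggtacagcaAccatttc
Iglv2: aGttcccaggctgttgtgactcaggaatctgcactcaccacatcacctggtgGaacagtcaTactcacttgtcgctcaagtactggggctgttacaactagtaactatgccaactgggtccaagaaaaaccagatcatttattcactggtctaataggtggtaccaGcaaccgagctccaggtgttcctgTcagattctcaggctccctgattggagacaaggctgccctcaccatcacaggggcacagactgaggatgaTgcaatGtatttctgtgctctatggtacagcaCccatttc
Ighv8-5: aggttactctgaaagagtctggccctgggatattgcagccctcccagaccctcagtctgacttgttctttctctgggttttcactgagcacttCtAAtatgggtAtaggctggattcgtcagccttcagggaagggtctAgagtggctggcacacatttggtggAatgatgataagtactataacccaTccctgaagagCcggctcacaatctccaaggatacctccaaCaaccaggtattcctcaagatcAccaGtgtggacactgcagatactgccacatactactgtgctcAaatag
Ighv8-8: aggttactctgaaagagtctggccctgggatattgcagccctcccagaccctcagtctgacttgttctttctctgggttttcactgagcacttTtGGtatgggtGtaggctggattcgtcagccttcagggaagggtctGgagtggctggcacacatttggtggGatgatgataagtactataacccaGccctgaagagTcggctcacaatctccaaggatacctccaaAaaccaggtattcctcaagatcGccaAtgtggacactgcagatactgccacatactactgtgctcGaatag
Iglv1 and Iglv2 were identical at 96.7% of 366 aligned bases and differed at 8 of the 300 printed, while Ighv8-5 and Ighv8-8 were identical at 96.1% of 358 and differed at 12. Few stretches were shared by Igkv15-103 (1.5% with up to 2 mismatches), Igkv14-100 (5.3%), Ighv1-5 (20.2%) and Igkv2-137 (21.7%), so fewer of their reads can come from near-copies. Iglv3 shared none.

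The summed level of the segments was taken as CPM after TMM scaling, which keeps a few very abundant genes from setting each library's scale. It was 638, 1319, 815, 482 and 357.5 CPM in VSG 1 to 5 and 585, 226, 643, 480.1 and 381 CPM in sham 1 to 5. VSG 2 and VSG 3 lay above every sham library and sham 2 lay below every VSG library, but the groups overlapped, with means of 722 ± 375 and 463 ± 166 (SD, n = 5 each). On the log2 scale the VSG mean was 0.59 higher, less than the pooled SD of 0.67. It was 0.33 higher without VSG 2, 0.35 higher without sham 2 and 0.07 higher without VSG 2, sham 2 and sham 4. In bulk tissue, fewer cells of a type and less RNA per cell cannot be told apart, and this holds for every level here. The segments took 0.0339% to 0.133% of all counts in the VSG libraries and 0.0212% to 0.0649% in the sham libraries.

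**Figure D1:**
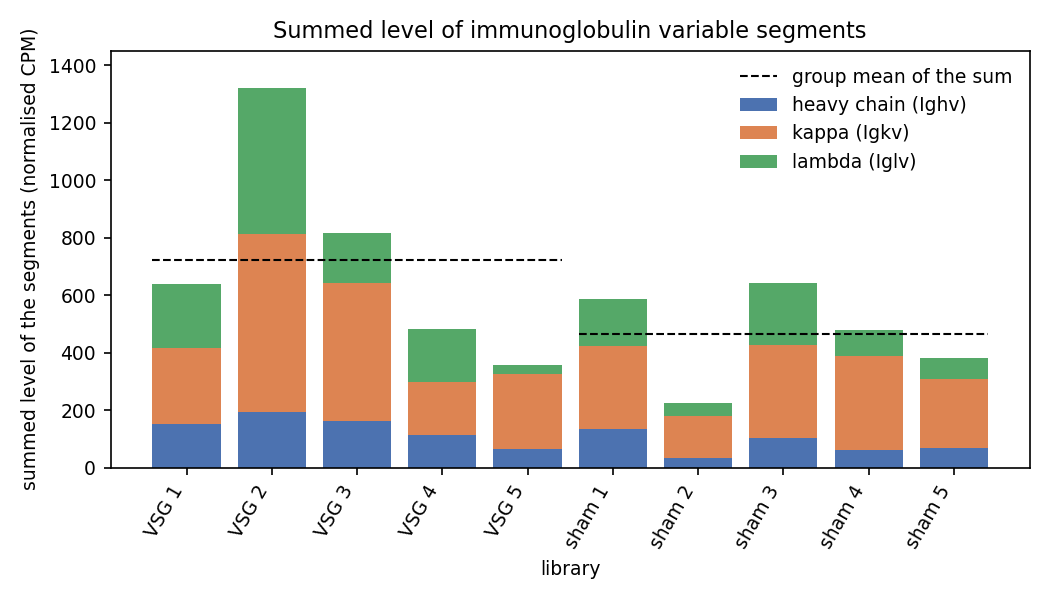
Summed normalised CPM of the segments in each library, stacked by heavy, kappa and lambda class, with dashed lines at the group means of 722 (VSG) and 463 (sham). VSG 2 is the tallest bar at 1319 CPM and sham 2 the shortest at 226 CPM, and the other bars of both groups lie between 357.5 and 815 CPM.

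Heavy-chain segments summed to 150.5, 192, 163, 115 and 64.0 CPM in VSG 1 to 5 and to 132, 31.4, 102, 61.0 and 69.1 CPM in sham 1 to 5. Here 3 VSG libraries exceeded the highest sham library, VSG 5 lay among the sham values, and the log2 difference was 0.85 with a pooled SD of 0.71. It was 0.56 without sham 2 and 0.25 without VSG 2, sham 2 and sham 4. With the heavy-chain segments listed under other symbols, described below, it was 0.54 with a pooled SD of 0.655. Kappa segments summed to 264.5, 620.3, 479, 183 and 261 CPM in the VSG libraries and to 292, 148, 325, 326 and 240.3 CPM in the sham libraries. VSG 2 and VSG 3 were the high libraries, VSG 4 and sham 2 the low ones, and the log2 difference of 0.35 was below the pooled SD of 0.61. The kappa difference was 0.12 without VSG 2, 0.22 without VSG 3, 0.16 without sham 2 and -0.02 without the 3 libraries that stood apart.

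Lambda segments summed to 223, 507, 174, 184.5 and 32.5 CPM in VSG 1 to 5 and to 161, 46.5, 215, 93.2 and 71.3 CPM in sham 1 to 5. VSG 5 had the lowest value of all and VSG 2 the highest, so the log2 difference of 0.69 was well below the pooled SD of 1.20. It was 0.28 without VSG 2, 0.41 without sham 2, 1.27 without VSG 5 and -0.13 without VSG 2, sham 2 and sham 4. Lambda took 45.8%, 45.0%, 26.6%, 50.2% and 11.1% of the light-chain segment counts in the VSG libraries and 35.6%, 23.9%, 39.8%, 22.2% and 22.9% in the sham libraries. These lambda shares leave out the kappa segments listed under other symbols, described below, so they are shares among the segments with current symbols.

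Constant genes code for the shared end of the antibody chains. For kappa chains the constant gene gives a level that does not depend on the segment chosen. Igkc, the kappa constant gene, was at 911, 1545, 1261, 620.1 and 752 CPM in VSG 1 to 5 and at 744, 333, 1045, 1047 and 628 CPM in sham 1 to 5. Kappa segments held 0.290 to 0.401 CPM per CPM of Igkc in the VSG libraries and 0.311 to 0.444 in the sham libraries, so the ratio moved far less than either level. Igj, the joining chain of secreted IgA and IgM, was at 407, 833, 635, 348 and 308 CPM in the VSG libraries and at 344, 155, 381, 489.7 and 285 CPM in the sham libraries. The summed level of the segments was 1.16 to 1.58 times that of Igj in the VSG libraries and 0.981 to 1.70 times in the sham libraries. VSG 2 was thus highest and sham 2 lowest for the segments, Igkc and Igj alike.

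Of the list of 26 constant and joining genes 11 were found by symbol and 10 were tested, of which 9 had a higher and 1 a lower value in VSG, with none called and a median log2 fold change of 0.47. Igha, the IgA constant gene, was on the list but was not found by symbol, so its level is not given. Ighg1, the IgG1 constant gene, was at 3.66, 21.8, 3.78, 10.3 and 3.88 CPM in the VSG libraries and at 4.07, 0.549, 4.42, 0.334 and 0.910 CPM in the sham libraries. Its groups overlapped and its log2 fold change was 2.08 ± 0.78 (SE; edgeR adjusted p = 0.977). Ighg2c (1.13 ± 0.59), Igkc (0.42 ± 0.34), Iglc2 (0.39 ± 0.48), Igkj1 (0.71 ± 0.44), Igkj2 (0.40 ± 0.32), Igkj4 (0.52 ± 0.45) and Igkj5 (0.26 ± 0.46) had positive log2 fold changes that were not called. Ighm, the constant gene of IgM, was at 11.7, 69.9, 17.8, 93.2 and 80.3 CPM in VSG 1 to 5 and at 86.1, 8.45, 133, 9.63 and 39.1 CPM in sham 1 to 5. Ighm was low in the same 4 libraries with low B cell genes, VSG 1, VSG 3, sham 2 and sham 4. The summed segment levels of VSG 1, VSG 3 and sham 4, at 638, 815 and 480.1 CPM, nevertheless lay above the sham mean of 463. That of sham 2, at 226 CPM, lay below it. Iglc3, a lambda constant gene, was at 405, 219 and 250.0 CPM in VSG 2, VSG 4 and sham 3 and at 6.85 to 29.2 CPM in the other 7 libraries, with a log2 fold change of 1.21 ± 1.28. Sharing of reads between constant genes was not examined.

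All 16 plasma cell genes were tested, 15 of them higher and 1 lower in VSG, none called, with a median log2 fold change of 0.42. Their summed level was 1649, 1931, 2005, 1480.2 and 1521 CPM in VSG 1 to 5 and 1383, 1077, 1703, 1364 and 1235 CPM in sham 1 to 5. Sdc1, Xbp1, Txndc5 and Edem1 gave much of this sum, with 298, 282, 281 and 235 CPM of the 1649 in VSG 1. Sdc1 was lowest in sham 4, VSG 2 and sham 2 (110, 115 and 117 CPM), although Igj peaked in VSG 2 at 833 CPM. Which cells these messages came from was not tested, so the sum is not to be read as a plasma cell level. Prdm1, a transcription factor that drives plasma cell formation, had a log2 fold change of 0.46 ± 0.17 (SE), Derl3, a protein-quality gene of secretory cells, of 0.73 ± 0.30, Edem1, of the same kind, of 0.30 ± 0.12, and Igj of 0.61 ± 0.34 (edgeR adjusted p = 0.977 for each). Of the 14 B cell genes 10 were higher and 4 lower (median 0.09), and Ms4a1 (0.34 ± 1.04), a B cell surface protein, varied more within groups than between them. Of the germinal centre list 10 of 13 genes were tested, 7 higher and 3 lower. Of the 13 tested genes for IgA induction and transport 5 were higher and 8 lower, and Pigr, the receptor that carries IgA across the epithelium, was at 1448 to 5409 CPM with a log2 fold change of -0.07 ± 0.38. All 12 T cell genes had negative values (median -0.43), as did all 8 smooth muscle genes (median -0.68), 6 of 8 epithelial genes were positive (median 0.20), and no gene of these lists was called. The summed smooth muscle genes lay at 926 to 1667 CPM in the VSG libraries and at 418 to 3969 CPM in the sham libraries, and the part of tissue makeup in the segment levels was not tested.

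Counts were concentrated on few segments, to a degree that differed between libraries. The 10 highest of the 100 segments in a library held 72.1%, 66.3%, 47.4%, 68.1% and 52.6% of the counts of these 100 in VSG 1 to 5. In sham 1 to 5 they held 64.2%, 64.8%, 65.7%, 55.9% and 68.6%. The most even and the most uneven library were both VSG, and the means of 61.3% ± 10.7 and 63.9% ± 4.74 (SD, n = 5 each) differed by less than their spread. The effective number of segments, the number of equally abundant segments that would give the same concentration, was 8.44, 11.5, 22.2, 8.88 and 24.5 in the VSG libraries and 13.4, 16.0, 10.7, 18.3 and 14.0 in the sham libraries. Its means were 15.1 ± 7.65 and 14.5 ± 2.85. The difference in effective number, 0.62, was -1.73 without VSG 5, -1.15 without VSG 3 and -0.33 without sham 3, so it had no stable direction. The difference in the 10-segment share, -2.59 percentage points, was 0.89 without VSG 3 and -5.28 without VSG 1. Thinning every library to 6995 segment counts, the depth of the shallowest, left the shares between 47.5% and 72.1% and the effective numbers between 8.43 and 24.5. Between 91 and 98 segments were detected per library and 39 to 75 reached 1 CPM, the fewest in sham 2 and the most in VSG 2.

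**Figure D2:**
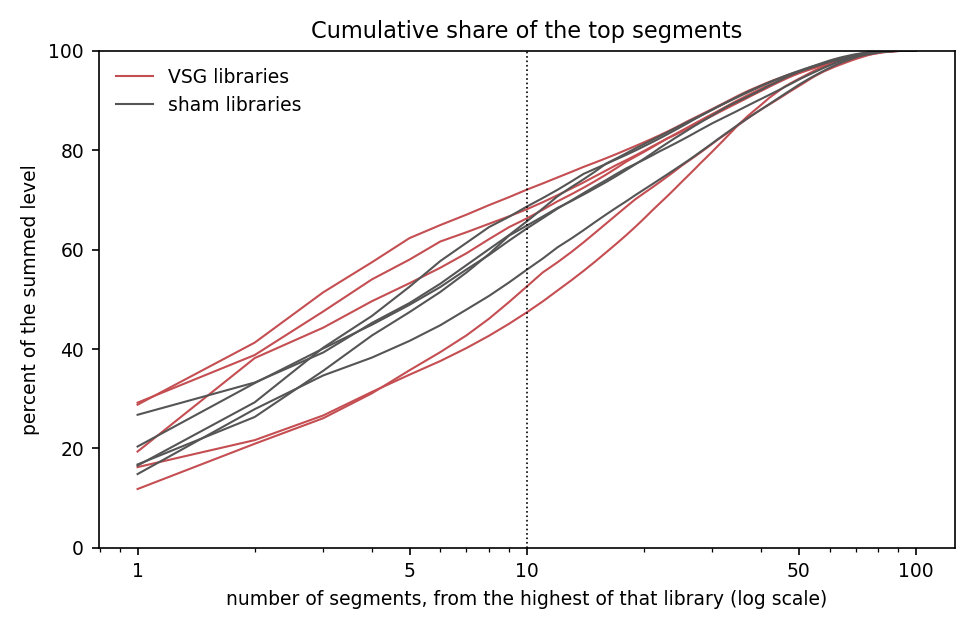
Cumulative percent of the summed segment level against the number of segments counted from the highest of each library (log scale), 1 line per library, VSG in red and sham in grey. At 10 segments (dotted line) the lines run from 47.4% in VSG 3 to 72.1% in VSG 1, and the sham lines, from 55.9% to 68.6%, lie inside the VSG range.

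Among the 32 heavy-chain segments 6 different ones led in the 10 libraries, and no segment led in more than 3. Leaders, ranks and shares of heavy-chain counts here and below leave out the segments listed under other symbols. The 32 summed to 150.5, 132, 69.1 and 31.4 CPM in VSG 1, sham 1, sham 5 and sham 2. With the other symbols these sums were 449, 455, 338 and 170 CPM, so shares of all heavy-chain segments would be lower. Ighv8-5 (ENSMUSG00000076711) was at 79.7 CPM in VSG 1, 74.6 CPM in sham 1 and 24.3 CPM in sham 5, where it held 53.0%, 56.4% and 35.1% of heavy-chain counts, and at 0.145 to 1.73 CPM in the other 7 libraries. Libraries of both groups were thus high, and the log2 fold change of -0.26 ± 1.78 (SE; edgeR adjusted p = 0.995) was -4.55 without VSG 1 and 1.42 without sham 1. Its near-copy Ighv8-8, which the count tables list as Gm9740, was at 9.15, 7.99 and 2.97 CPM in the same 3 libraries and at 0.0996 to 3.94 CPM in the others, and 66.0% of the stretches of Ighv8-5 match it with up to 2 mismatches. How much of the Ighv8-8 count comes from Ighv8-5 reads was not tested.

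Ighv9-3 led in VSG 4, sham 3 and sham 4, with 40.3%, 37.2% and 20.2% of heavy-chain counts. It was at 13.3, 12.5, 15.0, 46.2 and 7.14 CPM in VSG 1 to 5 and at 3.69, 0.646, 38.1, 12.3 and 6.61 CPM in sham 1 to 5, with a log2 fold change of 0.62 ± 0.84 that was -0.03 without VSG 4, 0.31 without sham 2, 0.37 without sham 1 and 1.73 without sham 3. Each of the other leaders led in 1 library only. Ighv1-9 led in VSG 2 at 80.7 CPM, 42.0% of heavy-chain counts, and lay at 3.32 to 15.4 CPM in the other VSG libraries and at 2.22 to 5.25 CPM in the sham libraries. Ighv1-5 led in VSG 3 and was at 3.82, 13.5, 38.6, 31.1 and 5.80 CPM in VSG 1 to 5 and at 0.114, 0.334, 11.7, 2.78 and 0.942 CPM in sham 1 to 5, so that only sham 3 reached the VSG range. Ighv14-3 led in VSG 5 with 18.7% of heavy-chain counts, at 11.9 CPM, against 2.59 to 10.4 CPM in the other VSG libraries and 0.436 to 6.62 CPM in the sham libraries. Ighv1-7 led in sham 2 with 50.9% at 16.0 CPM, and lay at 2.08 to 8.82 CPM in the VSG libraries and 0.611 to 3.33 CPM in the other sham libraries. Per kilobase of transcript the order of the 4 highest heavy-chain segments was unchanged, from Ighv8-5 at a mean of 51.0 CPM per kb through Ighv9-3 (44.3) and Ighv1-9 (37.4) to Ighv1-5 (27.5), and these neighbours did not differ beyond the spread of the libraries.

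The 65 kappa segments had 9 different leaders in 10 libraries, and only Igkv5-45 led more than 1, VSG 3 and sham 1. Leaders, ranks and shares of kappa counts here and below leave out the kappa segments listed under other symbols. Among those, Gm16637 (Igkv10-96) was at 57.8 CPM in sham 1, above Igkv5-45. Igkv5-45 (ENSMUSG00000076567), with the highest mean of the 65, was at 12.3, 41.1, 44.3, 8.94 and 32.6 CPM in VSG 1 to 5. In sham 1 to 5 it was at 28.0, 21.0, 5.39, 10.8 and 2.78 CPM. The groups overlapped and its log2 fold change was 1.03 ± 0.63. A further gene in the count tables, Gm16850, was matched to Igkv5-45 through a RefSeq synonym. By order of Ensembl ID, along which segment numbers mostly fall, Gm16850 lies between Igkv12-46 and Igkv12-44. The gene listed as Igkv5-45 lies between Igkv12-44 and Igkv12-41, so by this order the name belongs to Gm16850. The listed symbol is kept here, but the transcript used for its length and stretches may be that of another segment. Of the stretches of the GENCODE transcript with that symbol, 98.2% are shared with near-copies, most of them with Igkv5-43. Igkv2-137 led in VSG 1 with 24.4% of kappa counts at 64.6 CPM, and was at 18.3, 18.1, 6.78 and 3.96 CPM in VSG 2 to 5 and at 21.0, 0.759, 24.0, 4.98 and 1.82 CPM in sham 1 to 5. Its transcript is the longest of the segments at 501 bases, and per kilobase it moved from rank 2 to rank 9 among kappa segments. Igkv13-84 led in VSG 2 at 70.1 CPM (11.3% of kappa counts), with 2.06 to 6.27 CPM in the other VSG libraries and 0.872 to 18.0 CPM in the sham libraries. Igkv6-15 led in VSG 4 at 19.3 CPM (10.5%), although it was higher, at 37.4 CPM, in VSG 2.

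Igkv4-63 led in VSG 5 at 42.3 CPM (16.2% of kappa counts), and is described with the comparison of the groups below. Among the sham libraries Igkv3-10 led in sham 2 at 21.6 CPM (14.6%), against 1.34 to 7.15 CPM in the other sham libraries and 3.16 to 7.68 CPM in the VSG libraries. Igkv15-103 led in sham 3 at 38.9 CPM (12.0%) and was as high, at 41.9 CPM, in sham 5. There Igkv4-57 led with 26.2% of kappa counts at 63.0 CPM, while its other 9 values lay between 3.06 and 16.6 CPM. Igkv6-13 led in sham 4 with 19.2% at 62.7 CPM, and was at 1.01 to 17.9 CPM elsewhere. A library's leader was thus usually a segment that stood many times lower in most other libraries, in either group. Igkv4-59 and Igkv10-94, which rank high by their mean without leading anywhere, were at 6.61 to 32.6 CPM and 2.13 to 38.4 CPM, and all of their stretches are shared with near-copies at up to 2 mismatches.

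**Figure D3:**
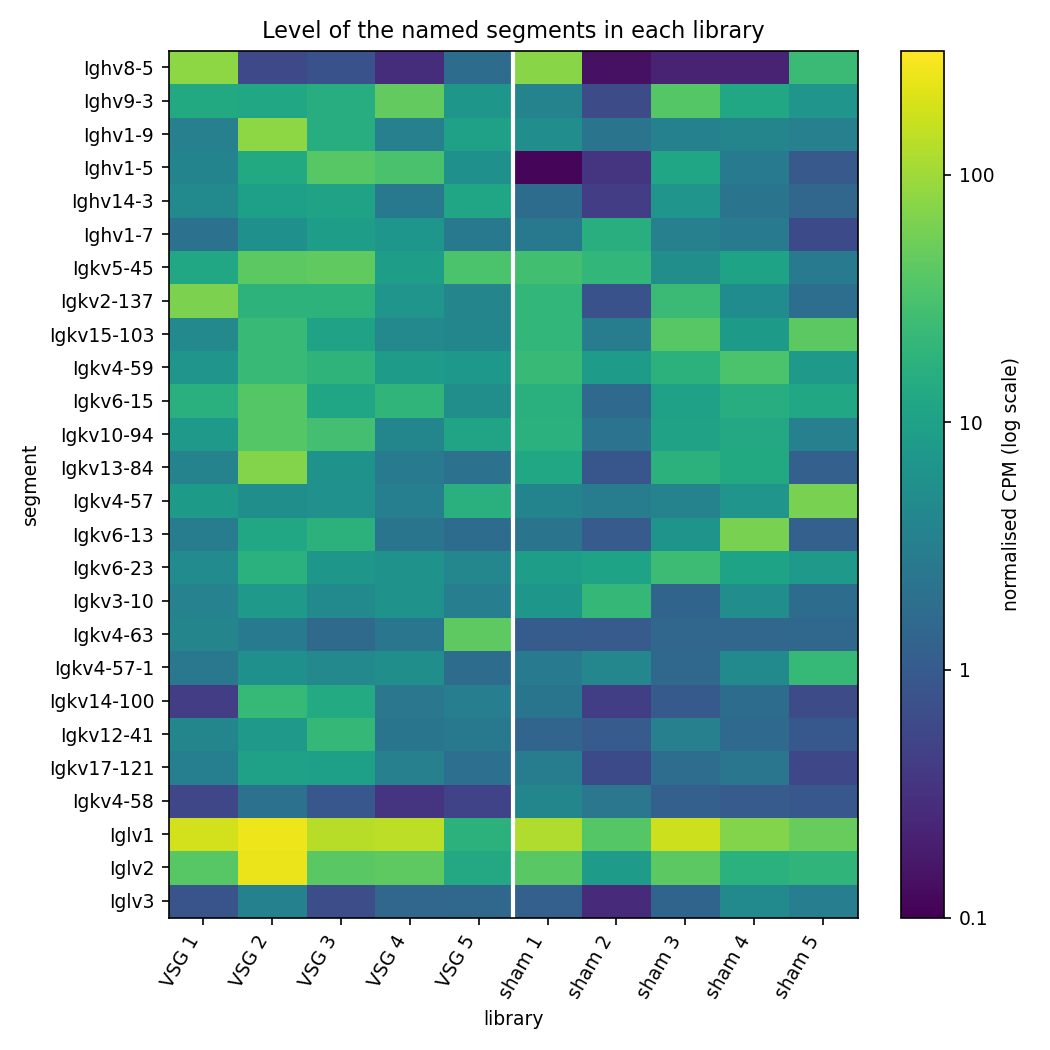
Normalised CPM (colour, log scale) of the 26 segments chosen by mean level, by leading a library or by lowest p, with libraries in columns and the white line between VSG and sham. Iglv1 is bright in nearly every column, whereas Ighv8-5 is bright only in VSG 1, sham 1 and sham 5, Igkv4-63 only in VSG 5 and Igkv6-13 mainly in sham 4.

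Iglv1 (ENSMUSG00000076934) led the lambda class in all 10 libraries. It was the highest of the 100 segments in every library but VSG 5, led by Igkv4-63, and sham 5, led by Igkv4-57. It was at 184, 256, 132, 141 and 17.9 CPM in VSG 1 to 5 and at 119, 37.9, 172, 71.3 and 48.4 CPM in sham 1 to 5. VSG 5 and sham 2 were the low libraries, and the log2 fold change was 0.70 ± 0.59 (edgeR adjusted p = 0.977). It was 0.40 without VSG 2, 1.08 without sham 3 and 0.07 without VSG 2, sham 2 and sham 4. Iglv2 (ENSMUSG00000076940) was at 38.5, 248, 40.5, 42.3 and 13.1 CPM in VSG 1 to 5 and at 40.8, 8.38, 41.7, 17.2 and 19.7 CPM in sham 1 to 5. Apart from VSG 2 its groups covered nearly the same range, and its log2 fold change of 1.58 ± 0.73 was 0.39 without VSG 2 and -0.02 without VSG 2, sham 2 and sham 4. In VSG 2 Iglv2 held 48.9% of lambda counts and Iglv1 50.4%, while in the other 9 libraries Iglv2 held 17.3% to 40.3%. Within this pair 22.2% of the stretches of Iglv1 and 24.0% of those of Iglv2 are shared unchanged, and 78.1% and 84.2% with up to 2 mismatches, so the split of those reads between the pair is uncertain. Iglv3 was low everywhere, at 0.675 to 3.41 CPM in the VSG libraries and 0.258 to 4.70 CPM in the sham libraries. Per kilobase, Iglv1 stood at a mean of 302 CPM per kb and Iglv2 at 139, against 53.8 for Igkv5-45 and 51.0 for Ighv8-5.

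With the 100 segments grouped into families of related sequence, the 18 Ighv1 segments held a mean of 52.6% of heavy-chain counts. Their share ran from 18.0% in VSG 1 to 84.2% in sham 2. The Ighv8 family held 65.0%, 67.2% and 40.5% in VSG 1, sham 1 and sham 5 and 0.830% to 5.36% in the other libraries. Ighv9 held 44.1% in VSG 4 and 41.0% in sham 3, and 2.12% to 21.7% elsewhere, and Ighv14 held a mean of 5.02%. Kappa counts were spread wider, with means of 21.5% for Igkv4, 20.4% for Igkv6, 9.82% for Igkv3, 8.28% for Igkv5, 7.44% for Igkv8, 7.30% for Igkv2 and 5.25% for Igkv15. Igkv4 ran from 11.8% in VSG 2 to 46.3% in sham 5, and Igkv6 from 11.3% in VSG 3 to 38.8% in sham 4.

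Similarity of makeup between libraries, over the same segments, was measured by the Morisita-Horn index, which is 0 for no segment in common and 1 for equal shares. For heavy chains its median over 45 pairs of libraries was 0.258, with 0.395 within VSG, 0.220 within sham and 0.255 between the groups. The highest value, 0.986, joined VSG 1 and sham 1, which both had Ighv8-5 in the lead, followed by 0.917 for VSG 4 and sham 3, both led by Ighv9-3. For kappa chains the median was 0.486, with 0.478 within VSG, 0.422 within sham and 0.493 between the groups, and the highest value, 0.780, again joined libraries of different groups, VSG 2 and sham 1. Libraries of a group were thus no closer in median kappa makeup than libraries of different groups.

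Most segments differed widely between libraries. Of the 80 segments that passed the filter on low counts, the median segment had 30.1% of its level, summed over the 10 libraries, in its highest library, against 14.3% for all 15678 genes that passed. The median coefficient of variation was 92.5% for the segments and 24.8% for all genes, and the median ratio of highest to median library was 4.36 and 1.45. More than 50% of the summed level lay in 1 library for 11 of 80 segments (13.8%) and for 80 of 15678 genes (0.510%). Those 11 were Ighv1-9, Igkv13-84 and Igkv9-129 in VSG 2, Igkv4-50, Igkv8-28, Igkv4-62 and Igkv2-112 in VSG 3, Igkv3-1 in VSG 1, Igkv4-63 in VSG 5, Igkv6-13 in sham 4 and Igkv4-57 in sham 5. Of all 100 segments, 26 were highest in VSG 2, 20 in VSG 3, 12 in VSG 1, 9 each in VSG 5 and sham 4, 6 each in sham 3 and sham 5, 5 each in VSG 4 and sham 1, and 2 in sham 2. Of the 80 tested segments 22, 16 and 6 were highest in VSG 2, VSG 3 and VSG 1, where 6.67%, 9.59% and 4.94% of all tested genes were highest. Sham 3 and sham 2 had 6 and 2 of the 80, and 23.0% and 11.2% of all tested genes. These differences are a description with no test, and the levels of segments and of all genes were not matched.

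**Figure D4:**
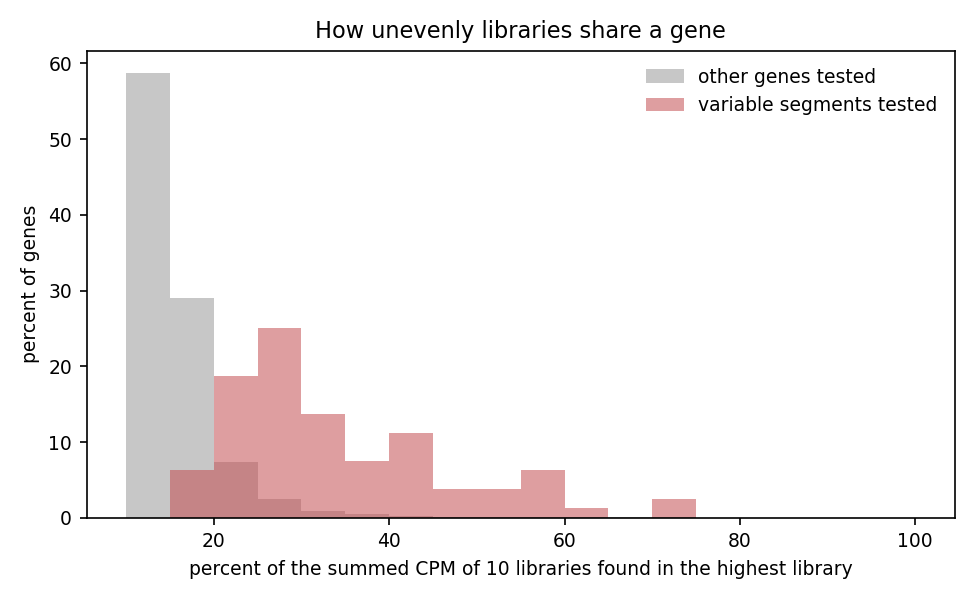
Percent of tested genes against the percent of a gene's summed CPM over 10 libraries that lies in its highest library, for 80 segments (red) and the other tested genes (grey). The segments peak between 20% and 30% and reach past 70%, whereas most other genes lie below 20%.

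The groups were compared by edgeR's quasi-likelihood test on rounded counts, with Benjamini-Hochberg adjustment over all 15678 genes tested and a threshold of 0.05 on the adjusted p. It called 0 genes (0% of those tested) and therefore 0 of 80 segments, and limma-voom also called 0, while DESeq2 called 11 genes of which 0 were segments. At an unadjusted p under 0.05 edgeR had 16 segments higher in VSG and 0 lower, against 1.88% of all tested genes higher and 1.91% lower. Those 16 were 5 of 23 Ighv, 11 of 54 Igkv and 0 of 3 Iglv segments tested. Without sham 5 there were 8 higher and 1 lower of 81 segments tested, beside 504 of 15783 genes in either direction. Without VSG 2, sham 2 and sham 4 there were 6 higher and 6 lower of 83 segments tested, beside 1107 of 15911 genes in either direction. By sign 54 of the 80 were higher in VSG and 26 lower, against 41.9% of all genes higher, and the median log2 fold change was 0.66 against -0.05 for all genes. The class medians were 0.42 for Ighv, 0.74 for Igkv and 0.70 for Iglv. The overall median of the segments was 0.28 without VSG 2, 0.42 without sham 2 and 0.24 without VSG 2, sham 2 and sham 4. Segments share plasma cells and reads, so they are not independent of each other.

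**Figure D5:**
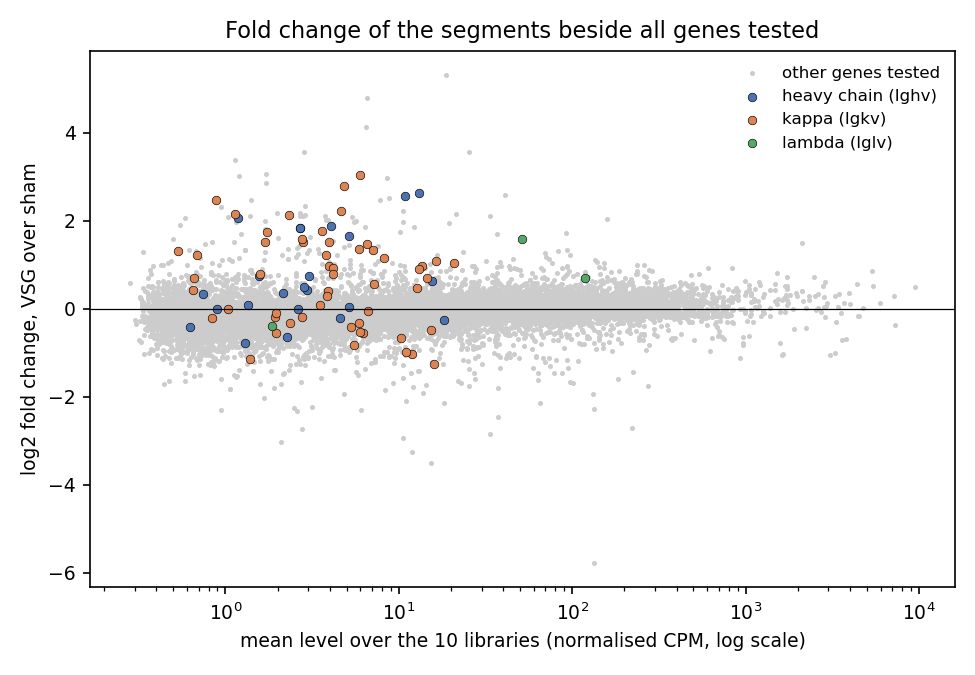
Log2 fold change, VSG over sham, against mean normalised CPM over the 10 libraries (log scale) for every tested gene, with segments coloured by class and other genes in grey. Segments spread from -1.27 to 3.04, with 54 of 80 above 0.

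Among the segments with the lowest p that were higher in VSG, several fold changes were much smaller without 1 library. Igkv12-41 was at 4.06, 7.80, 21.2, 2.32 and 2.63 CPM in VSG 1 to 5 and at 1.37, 1.01, 3.30, 1.59 and 0.915 CPM in sham 1 to 5. Sham 3 overlapped the VSG range, and the log2 fold change was 2.21 ± 0.65 (SE; 95% interval 0.79 to 3.63; edgeR adjusted p = 0.977) and 1.36 without VSG 3. Igkv4-63 (ENSMUSG00000076550) was at 3.89, 2.82, 1.60, 2.36 and 42.3 CPM in VSG 1 to 5 and at 1.03, 1.02, 1.44, 1.42 and 1.50 CPM in sham 1 to 5. All 5 VSG values lay above all 5 sham values, which held for 1 of 80 segments and for 0.262% of all genes tested in that direction. In the opposite direction it held for 0 segments and for 0.3% of all genes. The log2 fold change of Igkv4-63 was 3.04 ± 0.90 (edgeR adjusted p = 0.977), and it was 1.06 without VSG 5.

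Ighv1-9, with the values given above, had a log2 fold change of 2.63 ± 0.83 (edgeR adjusted p = 0.977), which was 1.14 without VSG 2 and 1.00 without VSG 2, sham 2 and sham 4. Igkv14-100 was at 0.429, 22.3, 13.7, 2.47 and 3.11 CPM in VSG 1 to 5 and at 2.32, 0.452, 0.980, 1.70 and 0.624 CPM in sham 1 to 5. VSG 1 was below every sham value and VSG 2 and VSG 3 far above them, with a log2 fold change of 2.78 ± 0.89 (edgeR adjusted p = 0.977). Igkv17-121 was at 3.26, 10.1, 9.35, 3.31 and 1.92 CPM in the VSG libraries and at 2.92, 0.609, 1.79, 2.38 and 0.574 CPM in the sham libraries, a log2 fold change of 1.76 ± 0.59. Ighv1-5 (2.56 ± 1.06, and 4.25 without sham 3) and Ighv14-3 (1.64 ± 0.63) were also among the 16. The remaining segments of the 16 were Ighv1-12, Ighv2-4, Igkv1-133, Igkv1-135, Igkv3-1, Igkv3-3, Igkv3-7, Igkv4-62 and Igkv9-129, with log2 fold changes from 1.30 to 2.47.

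None of the segments lower in VSG reached an unadjusted p under 0.05. Igkv4-58 came nearest, at 0.553, 2.10, 0.879, 0.352 and 0.502 CPM in VSG 1 to 5 and at 4.02, 2.48, 1.19, 0.997 and 0.884 CPM in sham 1 to 5. VSG 2 overlapped the sham range, and the log2 fold change was -1.14 ± 0.58 (edgeR adjusted p = 0.977), -1.78 without VSG 2 and -0.66 without sham 1. Igkv15-103 was at 4.49, 23.3, 10.3, 4.51 and 4.02 CPM in the VSG libraries and at 20.6, 3.02, 38.9, 7.96 and 41.9 CPM in the sham libraries. Sham 1, sham 3 and sham 5 were its high sham libraries, and its log2 fold change of -1.27 ± 0.71 was -1.96 without VSG 2 and -2.55 without VSG 2, sham 2 and sham 4 (edgeR adjusted p = 0.213 there). Igkv6-23 (-0.67 ± 0.43) was not called either, and was -1.17 without VSG 2 and -0.26 without sham 3. Igkv4-57 (-1.03 ± 0.87) and Igkv4-57-1 (-0.83 ± 0.67) rested on sham 5 and were 0.90 and 0.32 without it.

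The remaining 20 segments did not pass the filter, with a highest library between 0.0162 and 20.2 CPM and a median of 0.702. The top of that range was Igkv8-18, chosen here after its values were seen, at 20.2 CPM in VSG 3, at 0.039, 0.101 and 0.416 CPM in VSG 1, VSG 4 and sham 4, and at 0 counts in the other 6 libraries. So VSG 3 held 97.3% of its summed level, and the filter left it outside the test because it had almost no counts elsewhere. Of all 100 segments, 86 were detected in every library.

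Other variable segments appear in the count tables under provisional symbols, and 121 were matched through their Ensembl ID or a RefSeq synonym. They are not among the 100, 112 of them had counts, and they held 50.9% of all variable-segment counts. The highest were Gm16634 (Igkv1-110) at a mean of 59.8 CPM, Gm16797 (Igkv1-117) at 42.6 and Gm16865 (Ighv1-64) at 36.9, each above every heavy or kappa segment described so far by mean, and Gm16634 also above Iglv2 at 51.0. With them the summed level was 1228, 2562, 1675, 972 and 861 CPM in VSG 1 to 5 and 1145, 431, 1218, 1180.0 and 846 CPM in sham 1 to 5, with VSG 2 again highest and sham 2 lowest. The log2 difference between the groups was 0.58 with all variable segments and 0.59 with the 100. For heavy chains it was 0.54 (pooled SD 0.655) with all of them, below that SD, against 0.853 (0.713) with the 100. For kappa it was 0.522 (pooled SD 0.571) against 0.354 (0.609). The difference in the 10-segment share was 1.51 percentage points with all of them against -2.59, and that in effective number -1.67 against 0.62.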

How the data were processed

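Terminal ileum RNA of mice in 10 libraries (5 VSG, 5 sham) was sequenced on an Illumina HiSeq with TruSeq libraries, per the labels. The authors deposited 1 gene table per library of estimated counts, whole or fractional per the values, under a name that speaks of RPKM; library totals of 15364651 to 34058181 set the precision. The submitters' processing notes name DESeq and build mm9; the aligner, strand handling and treatment of reads with several matches are not given in the sources used here. The deposited tables of log2 values relative to the sham median were not used.

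Counts were rounded and all genes fitted in edgeR 4.0.16 (filterByExpr, TMM, quasi-likelihood test of VSG against sham over all 10 libraries, Benjamini-Hochberg); limma 3.58.1, DESeq2 1.42.0, other scalings, no filter, a replicate block and leaving out each library were alternatives. Levels are CPM on TMM-scaled totals without rounding. Summed levels, shares and similarities carry no test. The labels number the libraries of a group without naming the animal behind each, so p-values measure the spread between these libraries. In simulated data on 15501 genes, 42% of 2-fold and 92% of 4-fold changes were recovered, with 4 false among 138 calls. The changes were placed in genes drawn at random from the tested genes above a count minimum. The segments vary more, with a median coefficient of variation of 92.5% against 24.8% for all genes, so these shares do not give the recovery for segments. Sequences came from GENCODE M21 on GRCm38, matched by symbol (100 of 100), with Ensembl IDs matching for 38 segments; since the files use mm9, no coordinates are given. Named segments were the 6 most abundant Ighv and Igkv, all Iglv, any segment leading its class in a library, and up to 5 per direction with the lowest p at a mean of at least 1 CPM; families are described from a mean share of 5%. The segments, gene lists and rules were chosen with earlier results of these data known.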

Additional observations from a re-analysis of the deposited data

Results flagged for a closer look

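In 17 of 82 groups of 5 libraries checked, 1 library stood apart from the other 4 by Dixon's criterion. Chance meets it in about 1 in 20 groups for normally distributed values of genes not chosen for it. The values checked were not on a log scale, and their distribution was not examined. Many of the segments checked were also named because they led their class in a library, so the 17 are not to be read against that rate. In each case it was the high library of its group.

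Among heavy-chain segments, Ighv8-5 was at 79.7 CPM in VSG 1 against 0.286 to 1.73 in the other VSG libraries. Ighv9-3 was at 46.2 CPM in VSG 4 against 7.14 to 15.0. Ighv1-9 was at 80.7 CPM in VSG 2 against 3.32 to 15.4. Ighv1-5 was at 11.7 CPM in sham 3 against 0.114 to 2.78 in the other sham libraries. Ighv1-7 was at 16.0 CPM in sham 2 against 0.611 to 3.33.

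Among kappa segments in VSG libraries, Igkv2-137 was at 64.6 CPM in VSG 1 against 3.96 to 18.3, and Igkv13-84 was at 70.1 CPM in VSG 2 against 2.06 to 6.27. Igkv6-23 was at 17.1 CPM in VSG 2 against 4.11 to 7.12, and Igkv4-63 was at 42.3 CPM in VSG 5 against 1.60 to 3.89. In sham libraries, Igkv4-57 was at 63.0 CPM in sham 5 against 3.06 to 6.59, and Igkv4-57-1 was at 22.4 CPM in the same library against 1.53 to 4.61. Igkv6-13 was at 62.7 CPM in sham 4 against 1.01 to 6.52, and Igkv3-10 was at 21.6 CPM in sham 2 against 1.34 to 7.15. In sham 3, Igkv6-23 was at 25.0 CPM against 7.87 to 10.9, and Igkv12-41 was at 3.30 CPM against 0.915 to 1.59.

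In the lambda class Iglv2 was at 248.1 CPM in VSG 2 against 13.1 to 42.3. The lambda constant gene Iglc3 was at 250.0 CPM in sham 3 against 6.85 to 15.5. VSG 2 and sham 3 each stood apart 4 times, and VSG 3 and sham 1 did not.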

How the results depend on the processing

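EdgeR called 0 genes and 0 segments under every scaling tried, without a filter on low counts and without any 1 library, and limma-voom called 0 as well; DESeq2 called 11 genes, 0 of them segments. Genes at an unadjusted p under 0.05 numbered 595, and 1015 with no filter, 1135 without VSG 2, 1939 without sham 3 and 1107 without VSG 2, sham 2 and sham 4, an alternative chosen after seeing the data, as was adding the segments under other symbols. Segments at that threshold, 16 higher and 0 lower, were 8 and 1 without sham 5, where 504 of 15783 genes reached it. With a replicate block edgeR called 0 genes and 0 segments. At an unadjusted p under 0.05 it had 10 segments higher and 1 lower, beside 408 of 15678 genes. Same-numbered libraries correlated at 0.04, 0.18, -0.05, -0.32 and -0.07 over all genes and at 0.41, -0.05, 0, 0.15 and 0.20 over the segments. Not all of these were above 0.1, but so few correlations cannot decide whether the numbers pair the libraries. Of the 80 segments tested, 9 turned direction without VSG 2, 10 without sham 5, 11 without VSG 2, sham 2 and sham 4, 10 with limma-voom, 12 with the replicate block, and 0 to 3 under the other scalings and DESeq2. Among the 18 segments whose fold changes were recomputed one by one, Iglv2 turned to -0.018 without VSG 2, sham 2 and sham 4. Leaving out 1 library at a time, Igkv4-57 ranged from -1.50 to 0.90 and Igkv4-57-1 from -1.08 to 0.32, both highest without sham 5, and Iglv3 ranged from -0.90 to 0.10, highest without sham 4. Ighv8-5 ranged from -4.55 to 1.42 and was 0.052, 0.029, 0.058 and 0.017 without VSG 2, VSG 3, VSG 4 and VSG 5, and Ighv9-3 ranged from -0.034 to 1.73. In the same way the log2 difference of the summed level ranged from 0.33 to 0.80, that of Ighv from 0.56 to 1.10, of Igkv from 0.12 to 0.57 and of Iglv from 0.28 to 1.27. Over the same runs the difference in the 10-segment share ranged from -5.28 to 0.89 percentage points and in effective number from -1.73 to 2.29; leaving out the 3 libraries together gave -6.15 and 3.30. The causes were not tested.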
